A study of Rattus norvegicus with 6 samples.

Results

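The microRNAs rno-miR-103-3p and rno-miR-107-3p were described in small RNA libraries of rat brain. They were chosen by name, as the rows of the deposited count table that hold the mature 3p forms of miR-103 and miR-107, and are 2 of the 775 miRNAs that the table lists. Both had counts in all 6 libraries and both passed the filter of at least 10 counts in total, as did 454 miRNAs of the table.

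Male Sprague–Dawley rats, bought at 7 weeks of age, had both common carotid arteries ligated (2-vessel occlusion, 2VO), a model of vascular dementia in which blood flow to the forebrain is lowered for a long time. In the 2VO group, 3 libraries came from rats given the vehicle, 0.5% CMC-Na at 5 mL/kg, by gastric tube for 4 weeks. In the tilianin group, 3 libraries came from 2VO rats given tilianin, a flavonoid glycoside, at 40 mg/kg daily in the same vehicle for the same 4 weeks. No strain or gene alteration separates the groups, both groups carried the occlusion, and sham libraries were not analysed here. The values therefore describe tilianin against vehicle within 2VO and not the occlusion itself. The labels give the tissue as brain without a region, and a legend of the study speaks of cortical tissue. Nothing in the sources used here says whether each library is 1 rat, so the spread between libraries may be partly technical. These are bulk libraries, in which fewer cells of a type and less RNA per cell cannot be told apart.

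The libraries held 7175872 to 13198776 counts on miRNAs. At these depths a count of 0 allows up to 3 counts, or 0.227 to 0.418 CPM (counts scaled to library size), and such limits cover counting error only. Tilianin replicate 2 stood apart over the tested miRNAs, since its Spearman rho with each of the others was only 0.936 to 0.957, while those 5 reached 0.983 to 0.992 with one another. It also had the lowest summed level of the neuronal marker list, 83473 CPM, where the other 5 libraries held 126590 to 159403 CPM.

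A miRNA is cut from a hairpin in its precursor RNA, and the retained strand (guide) is loaded into an Argonaute protein and pairs with messenger RNAs mainly through its seed, the bases 2 to 8 from its 5′ end, which lowers their translation and stability. The other strand of the hairpin duplex, the passenger, is mostly degraded. miR-103 and miR-107 are vertebrate miRNAs whose hairpins lie in introns of pantothenate kinase genes (Pank), which encode the enzymes of the first step of coenzyme A synthesis. They are known as regulators of Dicer and of insulin sensitivity, and in the nervous system as miRNAs whose predicted and tested targets include Bace1 and Cdk5r1, a secretase and a kinase activator studied in dementia.

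The mature sequences are shown first because the members are nearly the same molecule, which limits what their separate counts mean. The RefSeq sequences, 5′ to 3′, have the seed in capitals below.
rno-miR-103-3p: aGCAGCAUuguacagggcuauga
rno-miR-107-3p: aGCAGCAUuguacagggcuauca
The same sequences are repeated with capitals on the single base at which they differ.
rno-miR-103-3p: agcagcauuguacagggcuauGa
rno-miR-107-3p: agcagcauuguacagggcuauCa
Both are 23 bases long, and the difference is G22C, with positions counted from 1 at the 5′ end, miR-103-3p's base first and miR-107-3p's base last. The first 21 bases are shared, so a read that ends at or before base 21 fits both rows equally. How such reads were assigned is not given in the sources used here. let-7a-1-3p and let-7c-2-3p, whose mature sequences are identical, have identical counts in all 6 libraries, so reads that fit both of those rows were not given to one alone, and whether the same holds for the members was not tested. Of the 693 mature rat sequences in the RefSeq table, these 2 were the only ones with the seed GCAGCAU.

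Their hairpins are shown because 1 of the 2 rows can be fed from more than one locus. In the RefSeq annotation of build GRCr8, 3 of the 419 hairpins hold the shared 21 bases. Mir103a1 lies at chr10:20748474-20748559 on the + strand within the gene Pank3. Mir103a2 lies at chr3:138963227-138963312 on the + strand within Pank2. Mir107 lies at chr1:241750418-241750504 on the − strand within Pank1. Each hairpin is on the strand of its host gene, and whether it falls in an intron was not read from exon coordinates here. The mature 3p strand, bases 52 to 74 of each hairpin, is in capitals below.
Mir103a1: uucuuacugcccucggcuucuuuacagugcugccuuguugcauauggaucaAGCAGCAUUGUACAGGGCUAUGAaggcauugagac
Mir103a2: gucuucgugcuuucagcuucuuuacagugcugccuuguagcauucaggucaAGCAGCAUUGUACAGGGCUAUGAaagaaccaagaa
Mir107: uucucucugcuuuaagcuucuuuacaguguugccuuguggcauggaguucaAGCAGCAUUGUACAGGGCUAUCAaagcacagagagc
Mir103a1 and Mir103a2 give an identical mature sequence, so the row of miR-103-3p sums products of the Pank3 and Pank2 loci and cannot be divided between them. Outside the mature strand the hairpins differ, and Mir103a1 and Mir103a2 have the same base at 69 of 86 positions when laid side by side without gaps. The passenger arms are also alike, with a longest shared run of 23 bases between Mir103a1 and Mir103a2, 14 between Mir103a1 and Mir107 and 15 between Mir103a2 and Mir107.

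miR-103-3p had 32109, 45125 and 25553 counts in 2VO replicates 1, 2 and 3, and 26816, 17128 and 30777 counts in tilianin replicates 1, 2 and 3. After scaling by TMM, edgeR's correction of library sizes, the 2VO libraries held 3499, 3483 and 3306 CPM, and the tilianin libraries 2912, 2638 and 3757 CPM. The groups overlapped, since tilianin replicate 3 was the highest of the 6 libraries and tilianin replicates 1 and 2 were the lowest, with all 2VO libraries between them. The 2VO mean was 3429 ± 107.1 CPM (SD, n = 3), and the tilianin mean was 3102 ± 583 CPM (SD, n = 3). miR-103-3p was thus an abundant brain miRNA in both groups, the 32nd of the 454 by mean CPM and between rank 28 and rank 37 in single libraries.

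miR-107-3p, whose annotated hairpin lies within Pank1, had 846, 1113 and 667 counts in 2VO replicates 1, 2 and 3. Tilianin replicates 1, 2 and 3 had 649, 492 and 768 counts. Whether some reads of this row came from the miR-103 loci was not tested. The 2VO libraries held 92.2, 85.9 and 86.3 CPM after scaling, and the tilianin libraries 70.5, 75.8 and 93.7 CPM. As for miR-103-3p, tilianin replicate 3 was the highest library, tilianin replicates 1 and 2 were the lowest, and the 2VO libraries lay between. The 2VO mean was 88.1 ± 3.53 CPM (SD, n = 3), and the tilianin mean was 80.0 ± 12.2 CPM (SD, n = 3). It ranked 170th of the 454 by mean CPM and between 157 and 172 in single libraries.

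**Figure D1:**
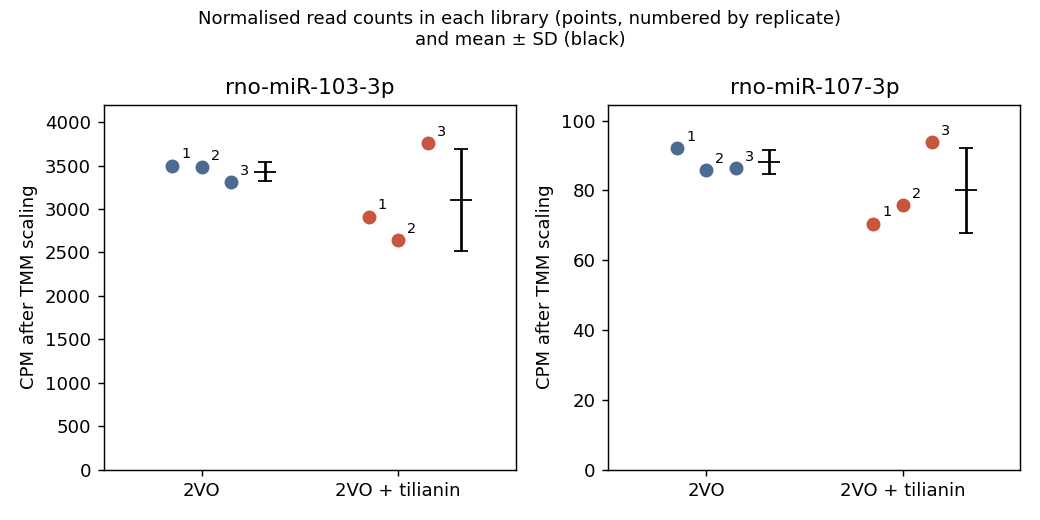
CPM after TMM scaling (y axis) of miR-103-3p and miR-107-3p in each 2VO and tilianin library (points), with the group mean and SD. In both miRNAs the tilianin libraries spread over a wider range, 2638 to 3757 CPM and 70.5 to 93.7 CPM, that contains all 2VO libraries.

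Neither member passed the criterion that the study used to screen miRNAs, an unadjusted p-value below 0.05 with an absolute log2 fold change above 1. miR-103-3p differed by -0.14 in log2 (standard error 0.198) between tilianin and 2VO, and its adjusted p = 0.861 came from edgeR's quasi-likelihood test with Benjamini-Hochberg adjustment over the 454 miRNAs. The 95% interval of the difference ran from -0.61 to 0.32 on the log2 scale, which holds folds from 0.655 to 1.25. miR-107-3p also differed by -0.14 in log2 (standard error 0.185), and the same edgeR test gave an adjusted p = 0.861. Its interval ran from -0.58 to 0.30, or folds from 0.671 to 1.23. Changes as large as the log2 threshold of 1 lay outside both intervals in either direction, and differences within the intervals were not resolved with 3 libraries a group. The two-sided exact permutation test on log2(CPM + 1) gave p = 0.4 for each member, where the smallest p that 3 libraries against 3 allow is 0.1.

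Because reads could be shared between the rows, their counts were also summed before the fit. A read counted in both rows enters this sum more than once, and such reads can be at most the counts of miR-107-3p, 2.36 to 2.79% of the sum in a library. The 2VO libraries held a sum of 3612, 3564 and 3388 CPM, and the tilianin libraries 2979, 2710 and 3846 CPM. The order of the libraries followed miR-103-3p, with tilianin replicate 3 highest and tilianin replicate 2 lowest. The means were 3522 ± 118 and 3179 ± 594 CPM (SD, n = 3 each), which differed by -0.15 in log2 (standard error 0.197), with an interval from -0.61 to 0.32 and an adjusted p = 0.859 by edgeR's quasi-likelihood test.

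As background, 21 of the 454 tested miRNAs (4.63%) were higher and 5 (1.1%) lower in the tilianin group by this criterion, and 0 passed an adjusted threshold of 0.05 in edgeR's test, with 33 at an unadjusted p-value below 0.05. The groups did not overlap for 44 of the 454 (9.69%). Neither member was among any of these. The sizes of the members' fold changes were below the median absolute log2 fold change of 0.29, and 324 miRNAs (71.4%) had a larger absolute log2 fold change than miR-103-3p, as did 329 (72.5%) than miR-107-3p. The median signed log2 fold change of all tested miRNAs was -0.03.

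**Figure D2:**
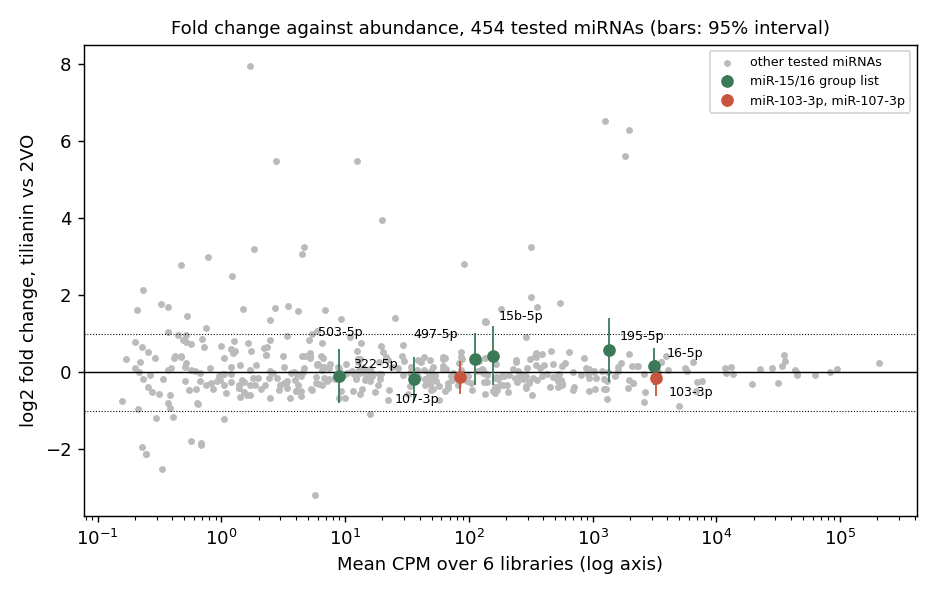
Log2 fold change of tilianin against 2VO (y axis) against mean CPM over 6 libraries (x axis, log scale) for 454 tested miRNAs, with 95% intervals for the members and for the miR-15/16 group list and dotted lines at the criterion of 1. Both members lie at -0.14, and their intervals cross 0.

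The libraries of the tilianin group differed more among themselves in both members than those of the 2VO group. The coefficient of variation of miR-103-3p was 3.12% in the 2VO group and 18.8% in the tilianin group. For miR-107-3p it was 4.00% and 15.2%. The SD of log2(CPM + 1) in the tilianin group was 5.79 times that of the 2VO group for miR-103-3p and 3.74 times for miR-107-3p. This direction was common in the table, since 337 of the 454 miRNAs (74.2%) had the larger SD in the tilianin group, with a median ratio of 1.86. Over all 6 libraries the members were among the steadier miRNAs, with an SD of log2(CPM + 1) of 0.190 for miR-103-3p and 0.160 for miR-107-3p against a median of 0.295 over the 269 miRNAs with a mean of at least 10 CPM. A smaller SD was seen in 53 (19.7%) and 34 (12.6%) of these.

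Marker miRNAs of other cell types moved between the same libraries. Tilianin replicate 2, in which miR-103-3p was lowest, had the highest summed level of the Hox-cluster list (miRNAs of posterior tissues), at 21658 CPM. For that list 2VO libraries held 89.8 to 149 CPM, and tilianin replicates 1 and 3 held 321 and 489 CPM. miR-107-3p was instead lowest in tilianin replicate 1, at 70.5 CPM against 75.8 CPM in replicate 2, and replicate 1 had a Hox-cluster level of 321 CPM. Tilianin replicate 2 was also highest for the erythroid list at 881 CPM, with 155 to 198 CPM over 2VO libraries and 406 and 338 CPM for tilianin replicates 1 and 3. Nearly all of this list was miR-486, with 1396 to 5691 counts a library, beside 2 to 23 for miR-144-3p. The erythroid values thus describe miR-486 alone. For the choroid plexus list tilianin replicate 2 had 1073 CPM, where 2VO libraries held 119 to 148 CPM and tilianin replicates 1 and 3 held 346 and 121 CPM. Its myeloid list level was 746 CPM, where 2VO libraries held 326 to 456 CPM and tilianin replicates 1 and 3 held 496 and 457 CPM. In the order neuronal, Hox-cluster, erythroid, choroid plexus and myeloid, 0 of 4, 2 of 3, 1 of 2, 2 of 2 and 1 of 3 tested members were higher by the criterion, and none of them was lower. Over all 454 tested miRNAs, 21 (4.63%) were higher and 5 (1.1%) lower. The lists are short, and each sum follows its most abundant members. The neuronal markers miR-124-3p and miR-9a-5p were abundant in all libraries, with at least 362350 and 153689 counts. Of the other defining markers, miR-196b-5p had 0 counts in all libraries and the erythroid miR-451-5p had 0 to 4 counts. The part of these markers in the members' values was not tested. Without tilianin replicate 2 the log2 fold change was -0.03 for miR-103-3p and -0.09 for miR-107-3p.

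The proportion between the members was steadier than their levels over all 6 libraries, with an SD of the log2 ratio of 0.0897 against 0.190 and 0.160 for the levels. Within the 2VO group it was steadier than the level of miR-107-3p but not than that of miR-103-3p. There the SD was 0.0515 for the log2 ratio, 0.0455 for log2(CPM + 1) of miR-103-3p and 0.0564 for that of miR-107-3p. miR-103-3p exceeded miR-107-3p by 38.0, 40.5 and 38.3 times in counts in 2VO replicates 1, 2 and 3, and by 41.3, 34.8 and 40.1 times in tilianin replicates 1, 2 and 3. A ratio within a library needs no scaling of library sizes, and it compares molecules of equal length. The mean ratio was 38.9 ± 1.40 in the 2VO group and 38.7 ± 3.45 in the tilianin group (SD, n = 3 each), and the difference in log2 ratio of -0.01 had p = 0.9 in the two-sided exact permutation test.

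As a share of the counts of both rows, miR-107-3p was 2.57% (95% Clopper-Pearson interval 2.40 to 2.74), 2.41% (2.27 to 2.55) and 2.54% (2.36 to 2.74) in the 2VO libraries. In the tilianin libraries it was 2.36% (2.19 to 2.55), 2.79% (2.55 to 3.05) and 2.43% (2.27 to 2.61). Over all libraries 4535 of 182043 counts (2.49%) were on miR-107-3p. Tilianin replicate 2 had the highest share, and the lower end of its interval just cleared the upper ends of those of 2VO replicate 2 and tilianin replicate 1. The intervals of the other 5 libraries overlapped one another. The mean share was 2.51 ± 0.0865% in the 2VO group and 2.53 ± 0.230% in the tilianin group (SD, n = 3 each).

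**Figure D3:**
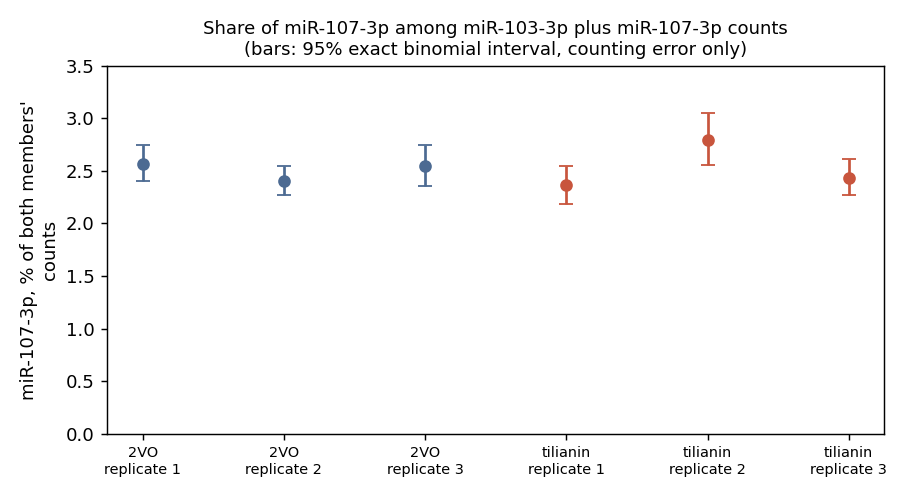
Share of miR-107-3p in the counts of both members (y axis, percent) in each library, with 95% Clopper-Pearson intervals that cover counting error only. The points lie between 2.36% and 2.79%, with tilianin replicate 2 highest.

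With a pseudocount of 0.5 counts, used for all pairs, the SD of the log2 ratio of the members over the 6 libraries was 0.0899, where counting error alone would give 0.0549. Without tilianin replicate 2 it was 0.0530, close to the counting error. Among all 36046 pairs that the 269 miRNAs with a mean of at least 10 CPM can form, 112 (0.311%) had a smaller SD, and the median was 0.481. Rows with identical counts, such as let-7a-1-3p and let-7c-2-3p, are among these 112. For miR-103-3p, miR-107-3p was the 2nd closest of 268 partners, between miR-341 with 0.0894 and miR-9a-5p, a neuronal miRNA, with 0.0913. The levels of the members had a Pearson r of 0.88 and a Spearman rho of 0.89 over the 6 libraries, which share depth and composition, and these are given as a description. How far reads were shared between these rows was not tested.

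Other miRNA pairs with the same closeness of sequence give a scale for this. In the table, 12 pairs of mature miRNAs with a mean of at least 10 CPM had equal length and differed at 1 base. The members had the 2nd smallest SD of the log2 ratio of the 12, after let-7a-5p and let-7c-5p with 0.0741 and before let-7a-5p and let-7f-5p with 0.0968. The largest was 0.399, for miR-135a-5p and miR-135b-5p. miR-133a-3p and miR-133b-3p, muscle miRNAs that also differ at base 22, had an SD of 0.287. The difference in abundance within the members' pair, 38.7 times on average, was exceeded only by that of miR-7a-5p and miR-7b, 326 times, whose SD was 0.281. Without tilianin replicate 2, the members had the smallest SD of the 12 pairs, and let-7a-5p with let-7c-5p the next with 0.0726.

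**Figure D4:**
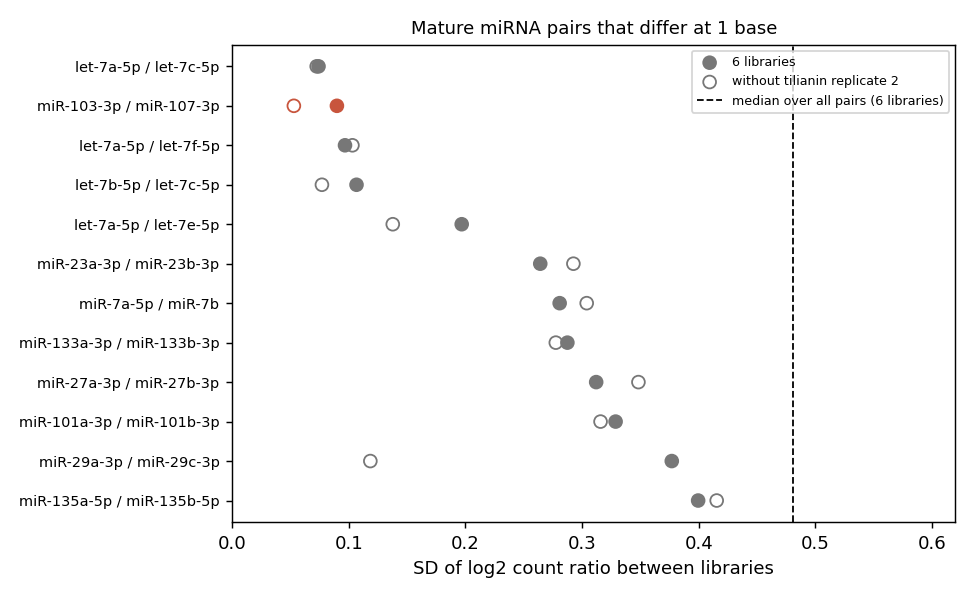
SD between libraries of the log2 count ratio (x axis) for 12 pairs of mature miRNAs of equal length that differ at 1 base (y axis), over 6 libraries (filled) and without tilianin replicate 2 (open), with the median of all pairs as a dashed line. The members lie at 0.0899 and 0.0530, below the median of 0.481.

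The passenger strands of the same hairpins were almost not counted. miR-103-1-5p, the passenger named for the first locus, had 1 count in 2VO replicate 3, 1 in each tilianin library and 0 in the others. miR-103-2-5p, from Mir103a2, had 1 count in tilianin replicate 3 and 0 elsewhere, and miR-107-5p had 0 counts in all 6 libraries. Together the 5p strands of miR-103 were 5 of 177513 counts (0.00282%, 95% Clopper-Pearson interval 0.000915 to 0.00657). For miR-107 they were 0 of 4535 counts, which allow a share of up to 0.0813% by the same kind of interval. With so few counts no comparison of the strands between the groups was possible. Among the other hairpins with both arms in the table and at least 1000 counts, the median share of the minor arm was 1.27%. In 13 of them it was smaller than that of miR-103, and in 9 it was 0. A low count in this table need not mean that a strand was absent, since miR-21-5p, commonly abundant in tissues, was listed with 1 to 8 counts. miR-103-2-5p is annotated with 17 bases, which is short for a miRNA.

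The miR-15/16 group shares the run AGCAGC with the members near the 5′ end, but 1 base further in, so that its seed is not that of the members. It is described here as the nearest group by this run, and is known for targets in the cell cycle and in survival (Ccnd1 and Bcl2). The sequences below have the seed in capitals, and AGCAGC starts at base 2 rather than at base 1.
rno-miR-16-5p: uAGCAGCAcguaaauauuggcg
rno-miR-195-5p: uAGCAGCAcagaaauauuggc
rno-miR-15b-5p: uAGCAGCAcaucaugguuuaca
rno-miR-497-5p: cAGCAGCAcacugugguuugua
rno-miR-322-5p: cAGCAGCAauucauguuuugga
rno-miR-503-5p: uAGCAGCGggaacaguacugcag
Of the 693 mature sequences from RefSeq, 8 (1.15%) have AGCAGC starting at base 1, 2 or 3, and these are the members and the 6 listed here. miR-15a-5p, the other miRNA of the list, had 0 to 2 counts and was not tested.

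Of the 6 tested miRNAs of this list, 0 passed the criterion in either direction, and 4 had a positive and 2 a negative log2 fold change. The groups did not separate for any of them. Among all 454 tested miRNAs, 4.63% passed as higher, 1.1% as lower, and 9.69% had groups that did not overlap. The median log2 fold change of the list was 0.24, beside -0.03 for all tested miRNAs and -0.14 for each member. Without tilianin replicate 2 the median of the list was 0.05, and miR-195-5p, miR-15b-5p, miR-497-5p and miR-16-5p had log2 fold changes of 0.14, 0.05, 0.06 and 0.03. miR-195-5p had the largest value of the list, 0.56 (standard error 0.353), from means of 1096 ± 170 CPM for 2VO and 1618 ± 767 CPM for tilianin (SD, n = 3 each). Its level was highest in tilianin replicate 2, at 2466 CPM against 971 to 1417 CPM in the other 5 libraries. miR-16-5p, whose level of 2991 ± 276 and 3319 ± 589 CPM (SD, n = 3 each) was closest to that of miR-103-3p, differed by 0.15 in log2 (standard error 0.204). The log2 fold changes of miR-15b-5p, miR-497-5p, miR-322-5p and miR-503-5p were 0.42, 0.33, -0.19 and -0.10, with standard errors of 0.325, 0.286, 0.241 and 0.294. The smallest adjusted p in the list was adjusted p = 0.746 by edgeR's quasi-likelihood test.

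Against this list the members' weight differed most in tilianin replicate 2. The summed members had 0.773, 0.792 and 0.859 times the summed CPM of the list in 2VO replicates 1, 2 and 3, and 0.594, 0.397 and 0.963 times in tilianin replicates 1, 2 and 3. The tilianin group thus held both the lowest and the highest ratios, and the groups overlapped. The difference in log2 ratio was -0.40, with p = 0.4 in the two-sided exact permutation test. Between single miRNAs, the ratio of miR-103-3p to miR-16-5p was 1.15, 1.08 and 1.23 in the 2VO libraries and 0.872, 0.677 and 1.38 in the tilianin libraries.

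The 5 miRNAs whose levels were most like those of the summed members over the 6 libraries were found by Pearson r of log2(CPM + 1) among 267 other miRNAs with a mean of at least 10 CPM. They were miR-127-5p (r = 0.97), miR-9a-5p (r = 0.96), miR-341 (r = 0.95), miR-137-3p (r = 0.95) and miR-218a-5p (r = 0.94). miR-9a-5p, miR-137-3p and miR-218a-5p are known as miRNAs of neural cells, and miR-127-5p and miR-341 come from the imprinted Dlk1-Dio3 region. In 10 of the 267 miRNAs r was above 0.9, in 6 it was below -0.9, and the median was 0.12. Without tilianin replicate 2 the values were 0.92, 0.90, 0.996, 0.96 and 0.86 in this order. None of the 5 passed the criterion, and their log2 fold changes were -0.32, -0.30, -0.18, -0.59 and -0.44. miR-137-3p showed the pattern on the widest scale, where 2VO libraries held 408, 407 and 359 CPM and tilianin libraries 241, 112 and 426 CPM. All these values of r rest on the same 6 libraries and are given as a description. The neuronal marker list was divided in tilianin replicate 1. There miR-124-3p and miR-128-3p held 91854 and 24221 CPM, above 2VO replicate 1 (77748 and 17881 CPM) and 2VO replicate 2 (74146 and 17574 CPM). miR-9a-5p and miR-138-5p held 25970 and 148 CPM, below all 2VO libraries, as the members did.

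In the opposite direction, the lowest r to the summed members were those of miR-26b-5p (-0.96), miR-423-3p (-0.95), miR-423-5p (-0.95), the choroid plexus marker miR-204-5p (-0.94) and miR-450a-3p (-0.93). Without tilianin replicate 2 they were -0.93, -0.89, -0.87, -0.87 and -0.88 in this order. The Spearman rho of miR-204-5p was only -0.66 over all libraries, and for this marker 2VO libraries held 129, 146 and 118 CPM and tilianin libraries 342, 1064 and 118 CPM. In the AGCAGC list r was 0.93 for miR-322-5p, -0.39 for miR-497-5p, -0.64 for miR-15b-5p, -0.82 for miR-16-5p and -0.88 for miR-195-5p.

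**Figure D5:**
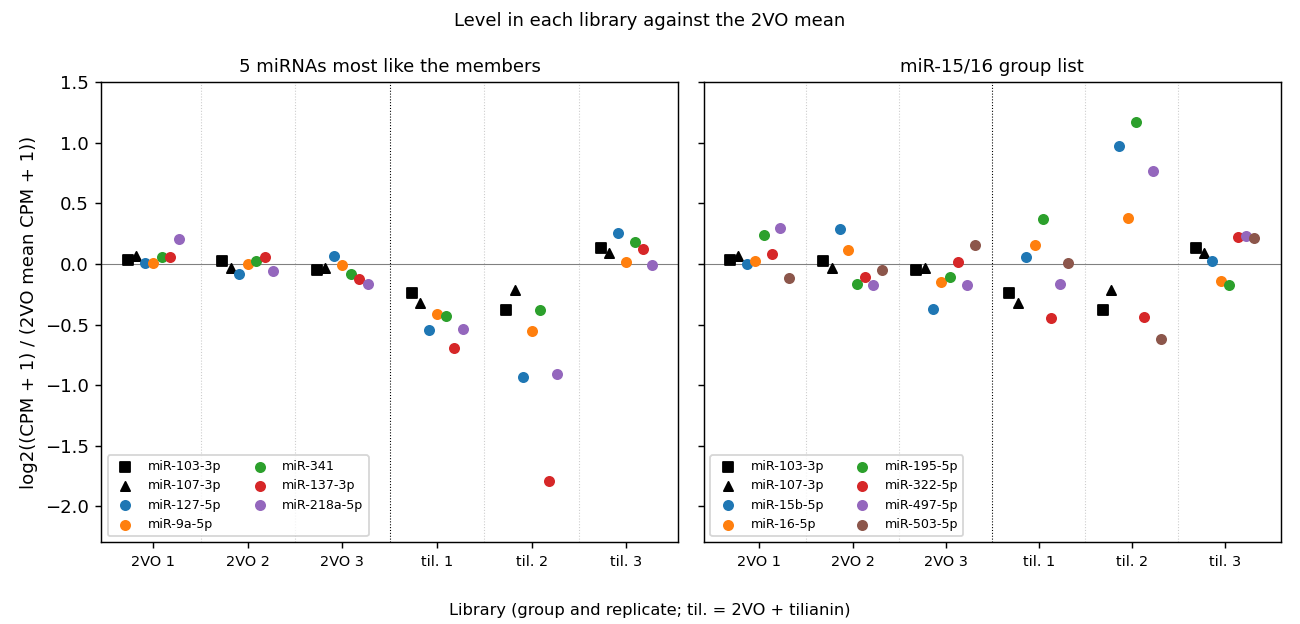
Level in each library against the 2VO mean (y axis, log2 of CPM + 1 over the 2VO mean + 1) for the members (black) with the 5 miRNAs most like them (left) and with the miR-15/16 group list (right). The 5 miRNAs lie below the 2VO mean in tilianin replicates 1 and 2, as the members do, whereas 4 of the 6 list members lie above it in tilianin replicate 2.

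The miRNAs next to each member in abundance did not pass the criterion either. Above miR-103-3p in mean CPM were miR-23b-3p (3382 CPM) and miR-434-3p (3283 CPM), and below it were miR-186-5p (3236 CPM) and miR-16-5p (3155 CPM). Their log2 fold changes were 0.01, -0.16, -0.17 and 0.15. Around miR-107-3p were miR-320-3p (86.2 CPM) and miR-125b-1-3p (86.0 CPM) above and miR-423-5p (83.0 CPM) and miR-127-5p (81.5 CPM) below. Their log2 fold changes were 0.52, 0.04, 0.23 and -0.32, and 0 of these 8 neighbours passed the criterion. Few of the 454 tested miRNAs passed it, 4.63% as higher and 1.1% as lower, so this count does not set the neighbours apart. Of the 4 neighbours of miR-103-3p, miR-23b-3p and miR-186-5p had a smaller SD of log2(CPM + 1) over the libraries than its 0.190, with 0.127 and 0.137, and miR-434-3p and miR-16-5p a larger one, with 0.245 and 0.201. Of the 4 neighbours of miR-107-3p, miR-125b-1-3p had a smaller SD of log2(CPM + 1) over the libraries, 0.0917, and the other 3 had larger ones, 0.288 to 0.446.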

How the data were processed

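Total brain RNA was made into small RNA libraries, and the authors deposited counts of reads per mature miRNA for each library, without normalization. The submitters' processing notes name FastQC 0.11.2, Trimmomatic 0.36, cutadapt 1.14 and DESeq2 1.12.4. The aligner, miRNA reference, build and counting program are not given in the sources used here, nor are molecular identifiers mentioned. Samples were grouped by their labels, and the column of 2VO replicate 3 carries another number in its code. Of the counts, miRNAs with at least 10 in total were kept, scaled by TMM and tested by quasi-likelihood in edgeR 4.0.16 under R 4.3.3, on all 6 libraries with group as the single term. Alternatives used DESeq2 1.42.0 and limma 3.58.1. The study's methods name general tests for its data and none for the sequencing in particular, and the notes name DESeq2 without its role. The quasi-likelihood test was used here for counts, with the study's thresholds. Standard errors are approximate, from each log2 fold change and F statistic. Exact permutation tests (scipy 1.17.1) compared single values, and pair ratios used a pseudocount of 0.5 counts. Sequences came from RefSeq (GRCr8), which matched 689 of the 775 names. The code was tested on simulated data.

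Named miRNAs were the members, their passenger strands, the AGCAGC list, the 2 neighbours on each side in mean CPM, the 5 most like the members, and the marker lists. The pairs that differ at 1 base, the closest partners of miR-103-3p, the miRNAs with the lowest r, let-7a-1-3p, let-7c-2-3p and miR-21-5p were named after values were seen. The members and lists were chosen with earlier results of these data known. The alternatives were DESeq2's size factors, plain library totals, DESeq2's Wald test, limma-voom, the filterByExpr filter, no filter, a block for the replicate number, and leaving out single libraries.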

Additional observations from a re-analysis of the deposited data

How the results depend on the processing

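Under each of the 13 alternatives, miR-103-3p, miR-107-3p and their sum kept a negative log2 fold change and did not pass the criterion. The values ran from -0.31 to -0.03 for miR-103-3p (adjusted p from 0.531 to 0.997), from -0.27 to -0.04 for miR-107-3p (adjusted p from 0.572 to 0.997) and from -0.31 to -0.03 for the sum (adjusted p from 0.522 to 0.994), by edgeR, DESeq2 or limma as named. The lowest came without tilianin replicate 3. With the replicate number as a block the values were -0.16, -0.15 and -0.16. Same-numbered deviations had correlations of -0.121, 0.00917 and 0.297 for replicate numbers 1, 2 and 3. No differently numbered correlations stand beside them, so these values cannot show whether libraries were paired. Pairing by replicate number was not tested.

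The count of miRNAs higher by the criterion was 6 with limma-voom, 9 with the replicate block and 7 to 29 when a library was left out, against 21. The count lower was 8 with plain totals, 3 by the Wald test of DESeq2, 3 by limma-voom, 2 under filterByExpr and 2 to 5 when a library was left out, against 5. The difference in log2 ratio of the members ran from -0.0593 to 0.0643 when a library was left out, turning positive without 2VO replicate 2 (0.0187) and without tilianin replicate 2 (0.0643). In the AGCAGC list 77 of 78 alternative values kept their direction and missed the criterion, and miR-503-5p, -0.30 to 0.15 when a library was left out, turned positive without tilianin replicate 2. The median of the list was 0.05 without that library, against 0.24. The SD of the members' log2 ratio was 0.0530 without that library, an alternative chosen after seeing the data. The ratio of guide to passenger strand gave no value, as fewer than 10 passenger counts were present. The cause was not tested, and 3 libraries a group limit what can be resolved.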
